A study of Mus musculus with 12 samples.

Results

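Ephrins and Eph receptors were followed here through 5 genes, the ligands Efna1, Efnb1 and Efnb2 and the receptors Epha4 and Ephb4, in endothelial cells of the embryonic mouse heart. The 5 genes were taken by symbol from 41214 gene rows in 12 polyA RNA-seq libraries, and all 5 passed the filter on low counts that left 15171 genes to test. Coronary endothelial cells line the vessels that form in the heart wall, and endocardial cells line the chambers. The 4 groups were sorted from dissociated hearts after the atria and the aortic region had been taken off. All sorted cells were negative for DAPI, Ter119 and CD45 and positive for CD31.

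The E17 coronary group (n = 2) and the E17 endocardial group (n = 2) came from embryos collected at E17.5 that carried R26 (tom/+) together with Nes-CreER (Tg/0) and Nes-Gfp (Tg/0) and were exposed to 0.1 ug of tamoxifen at E15.5. The E13 coronary group (n = 4) and the E13 endocardial group (n = 4) came from E13.5 embryos with Nes-gfp (Tg/0) alone, so transgenes and tamoxifen cannot be told apart from stage in any comparison of E17 with E13. By their names, Nes-Gfp and Nes-CreER are driven by Nes regulatory sequence. At E13 the coronary gate was GFP-positive and the endocardial gate was GFP-low with high Emcn, so Nes reporter activity took part in the sort. The labels describe E17 coronary gates for arterial and capillary cells and for venous cells without saying which gave the E17 coronary libraries, and describe the E17 endocardial gate as GFP-positive. The described gates thus differed between stages, as did the batch labels, 1 to 4 at E13 and 5 to 6 at E17. Gate and batch cannot be told apart from stage either in any comparison of E17 with E13. Nothing in the labels says whether replicates of a group came from separate litters or embryos, and p-values cover only the scatter seen among them.

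Eph receptors are receptor tyrosine kinases that bind ephrins on the surface of a neighbouring cell. A-type ephrins are held by a lipid anchor and B-type ephrins span the membrane. Contact can signal forward, through the receptor's kinase, and in reverse, through the ephrin. In embryonic vessels ephrin-B2 is known as a marker of arterial endothelium and EphB4, its receptor, as a marker of venous endothelium, and loss of either one in mouse embryos stops the remodelling of vessels.

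The start-site regions of Efnb2 and Ephb4 are shown because the balance of this ligand and its receptor separated coronary from endocardial libraries below. Each is the 250 bases before the RefSeq transcript start in GRCm38.p6, read 5′ to 3′ on the gene's strand, with GC boxes (GGGCGG on either strand) in capitals. The Efnb2 window lies at chr8:8661243-8661492 on the minus strand, and the Ephb4 window at chr5:137349859-137350108 on the plus strand.
Efnb2: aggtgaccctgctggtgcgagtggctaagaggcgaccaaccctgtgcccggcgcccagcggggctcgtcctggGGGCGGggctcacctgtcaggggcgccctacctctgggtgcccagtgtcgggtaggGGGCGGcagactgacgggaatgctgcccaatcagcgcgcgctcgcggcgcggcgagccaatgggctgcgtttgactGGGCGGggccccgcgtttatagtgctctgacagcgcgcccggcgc
Ephb4: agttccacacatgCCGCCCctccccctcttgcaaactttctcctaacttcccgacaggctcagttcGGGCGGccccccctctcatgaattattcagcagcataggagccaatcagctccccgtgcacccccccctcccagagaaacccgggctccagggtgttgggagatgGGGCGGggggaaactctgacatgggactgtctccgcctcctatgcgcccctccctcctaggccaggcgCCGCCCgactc
The Efnb2 window held 3 GC boxes and the Ephb4 window 4, and 32.7% of 32851 such RefSeq windows held at least 1. Their GC contents were 72.0% and 64.0%, against a median of 52.4%. The core letters of the RBPJ motif, TGGGAA on either strand, were in neither window, and 21.6% of all windows held them. They occurred at 2 places in the Efnb1 window and at 1 place in the Epha4 window, and in neither of the 2 Efna1 windows. A nuclear receptor half-site, AGGTCA on either strand, was in 14% of all windows and in none of the windows of these 5 genes. No matches of different motifs overlapped, and a match is only a run of letters.

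Total expected counts per library ran from 14973633 to 27360653, and levels are given as CPM, counts scaled by TMM library sizes so that libraries of unlike depth can be compared. The summed level of 7 endothelial markers was 9592 to 10750.3 CPM in E17 coronary, 7623 to 8008 CPM in E17 endocardial, 4943 to 6761 CPM in E13 coronary and 7671 to 8568 CPM in E13 endocardial libraries. For 9 fibroblast markers the sums were 1733 to 3833 CPM in E17 coronary, 1200.5 to 1330.2 CPM in E17 endocardial, 2212 to 5732 CPM in E13 coronary and 1233 to 1491 CPM in E13 endocardial libraries. The sums of 10 mural markers were 863 to 1124 CPM in E17 coronary, 179.2 to 180.5 CPM in E17 endocardial, 384.3 to 743.5 CPM in E13 coronary and 249.5 to 272.2 CPM in E13 endocardial libraries. No marker of these 3 lists was at 0 in any group. Epicardial markers (8) summed to 145 to 157 CPM in E17 coronary, 14.1 to 15.7 CPM in E17 endocardial, 81.5 to 95.3 CPM in E13 coronary and 17.1 to 21.3 CPM in E13 endocardial libraries. Neural crest and glial markers (9) summed to 5.15 to 8.92 CPM in E17 coronary, 2.72 to 3.77 CPM in E17 endocardial, 15 to 48.6 CPM in E13 coronary and 3.12 to 4.10 CPM in E13 endocardial libraries. Over all libraries cardiomyocyte markers summed to 128.5 to 362.5 CPM, erythroid markers to 10.3 to 463.2 CPM and leukocyte markers to 3.71 to 19.0 CPM, with Ptprc at 0 in E17 coronary libraries. Emcn, an endothelial sialomucin that was part of the E13 endocardial gate, was at 211 to 230.3 CPM in E17 coronary, 875 to 1108 CPM in E17 endocardial, 134 to 185 CPM in E13 coronary and 519 to 547 CPM in E13 endocardial libraries. In bulk libraries such as these, fewer cells of a type and less RNA per cell cannot be told apart.

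Set against gene length, Ephb4, Efna1 and Efnb2 gave most of the ephrin and Eph message in all 4 groups. Per kilobase of exon, Ephb4 averaged 103 CPM in E17 coronary, 117 CPM in E17 endocardial, 69.4 CPM in E13 coronary and 116 CPM in E13 endocardial libraries. It made up 75.9% of the summed Eph receptor level per kilobase in E17 coronary libraries, 65.6% in E17 endocardial, 63.0% in E13 coronary and 68.5% in E13 endocardial libraries. Epha4 was a minor receptor on this scale, with 1.57% to 2.30% of the receptor sum across group means. Among ephrins, Efna1 took 47.7% of the summed level per kilobase in E17 coronary, 43.9% in E17 endocardial, 46.9% in E13 coronary and 44.2% in E13 endocardial libraries. Efnb2 took 39.1% in E17 coronary, 38.9% in E17 endocardial, 35.0% in E13 coronary and 36.8% in E13 endocardial libraries. Which of Efna1 and Efnb2 stood first is not fixed by these data, because in 3 groups the order turned when the longest transcript was used as the length. Efnb1 held a share of 11.2% in E17 coronary, 8.85% in E17 endocardial, 5.97% in E13 coronary and 5.57% in E13 endocardial libraries, where Efna4 stood above it with 7.26%.

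**Figure D1:**
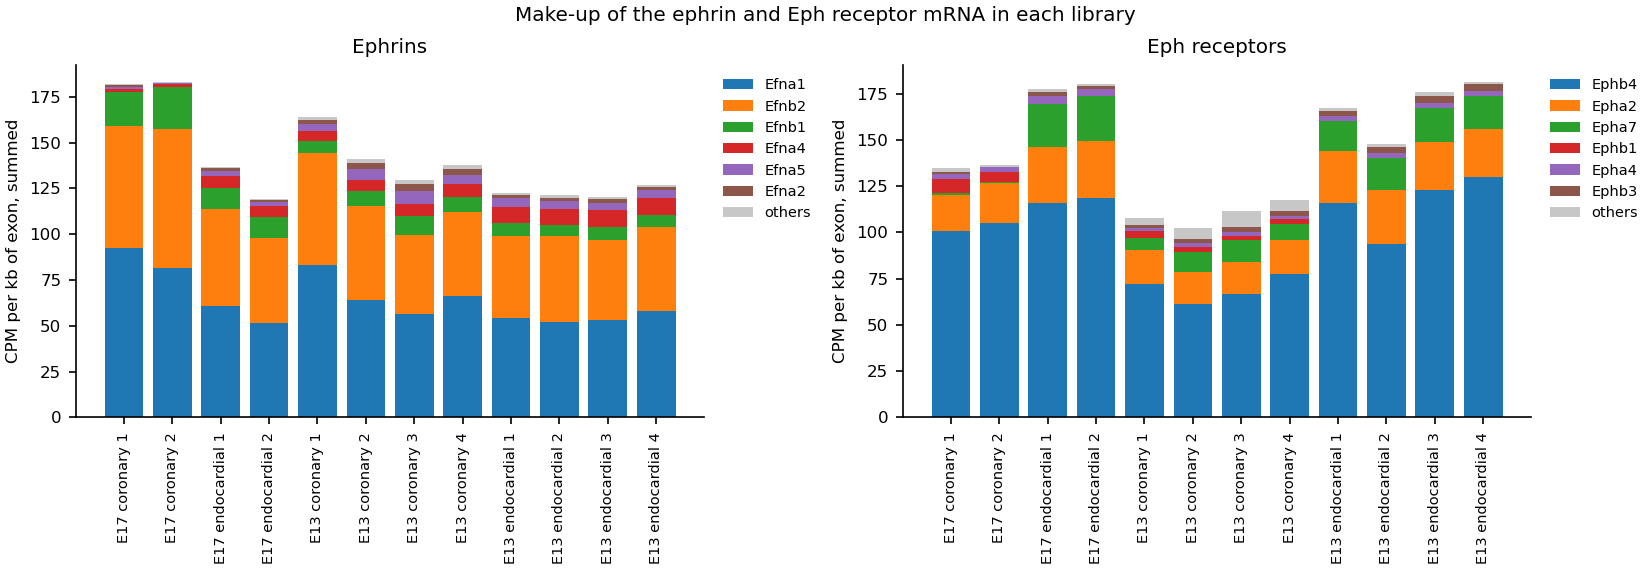
Summed CPM per kilobase of exon of all ephrins (left) and all Eph receptors (right) in each of the 12 libraries, stacked by gene, with libraries from E17 coronary to E13 endocardial. Efna1 and Efnb2 fill most of each ephrin bar, and Ephb4 averages 63.0% to 75.9% of the receptor bars of a group.

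Efnb2, the transmembrane ligand of EphB4, was highest in E17 coronary cells (ENSMUSG00000001300, chromosome 8, 8617434 to 8661242 on the minus strand, GRCm38). It was at 457 and 521 CPM in the E17 coronary libraries, against 363 and 318 CPM in the E17 endocardial libraries. The E13 coronary libraries had 417, 352, 297 and 312 CPM and the E13 endocardial libraries 307, 319.8, 297 and 315 CPM. Both E17 coronary libraries lay above all other libraries, and the E13 groups overlapped. Coronary Efnb2 was 1.44-fold the endocardial level at E17 (log2 difference 0.52 ± 0.13 SE, n = 2 each, edgeR adjusted p = 0.00576), a call lost without E17 endocardial replicate 2 (adjusted p = 0.0563) or without E17 coronary replicate 2 (adjusted p = 0.0534). At E13 the log2 difference was 0.15 ± 0.09 and did not pass (edgeR adjusted p = 0.181), except without E13 coronary replicate 3 (0.24, adjusted p = 0.0365).

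Efna1, a lipid-anchored ligand of EphA receptors, behaved alike in direction (ENSMUSG00000027954, chromosome 3, 89271733 to 89281142 on the minus strand). Its levels were 169 and 149 CPM in E17 coronary libraries, against 111 and 94.2 CPM in E17 endocardial libraries, with no overlap. At E13 they were 152, 117, 103 and 121 CPM in coronary libraries and 99.1, 95.3, 97.6 and 106 CPM in endocardial libraries, and the lowest coronary library fell just below the highest endocardial one. The coronary level was 1.55-fold the endocardial level at E17 (log2 0.63 ± 0.15, edgeR adjusted p = 0.00301) and 1.24-fold at E13 (log2 0.31 ± 0.10, edgeR adjusted p = 0.0199). The E13 call was lost without E13 endocardial replicate 2 (adjusted p = 0.0510).

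Efnb1, an X-linked transmembrane ligand of EphB receptors, was the lowest of the 3 ligands per kilobase (ENSMUSG00000031217, chromosome X, 99136130 to 99148991 on the plus strand). E17 coronary libraries had 62.7 and 78.3 CPM, against 38.5 and 39.2 CPM in E17 endocardial libraries. E13 coronary libraries had 23.2, 28.2, 35.2 and 29.1 CPM, against 25.6, 20.8, 24.9 and 23.1 CPM in E13 endocardial libraries. The stages did not overlap in either cell population, while the E13 populations overlapped. At E17 the coronary level was 1.82-fold the endocardial level (log2 0.86 ± 0.16, edgeR adjusted p = 0.000673). The E13 difference of 0.29 ± 0.12 on the log2 scale was a marginal call (edgeR adjusted p = 0.0474) that was lost without any 1 of 8 libraries, with adjusted p of 0.127, 0.0600 and 0.0937 without E13 endocardial replicates 2, 3 and 4. It was likewise lost without E13 coronary replicates 2, 3 and 4 (adjusted p of 0.0544, 0.110 and 0.0656) and when E17 endocardial replicate 1 or 2 was dropped (0.0615 and 0.0614).

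Ephb4, the receptor of ephrin-B2, ran the other way (ENSMUSG00000029710, chromosome 5, 137350109 to 137378669 on the plus strand). E13 coronary libraries had 334, 284, 311 and 359.9 CPM, against 538, 435, 569.6 and 603 CPM in E13 endocardial libraries, with no overlap. At E17 coronary libraries had 468 and 487 CPM, against 538 and 551 CPM in endocardial libraries, again with no overlap but much closer together. The coronary level was 0.600-fold the endocardial level at E13 (log2 -0.74 ± 0.10, edgeR adjusted p = 2.99e-05). At E17 the log2 difference was -0.19 ± 0.13 and did not pass (edgeR adjusted p = 0.257), although it passed with the batch label as a block (adjusted p = 0.0415). Ephb4 overlaps Zan on the opposite strand, and the libraries do not mark strand, but Zan held 754 counts over all libraries against 103840 for Ephb4.

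Epha4, which binds both A-type and B-type ephrins and is best known from axon guidance, was also lower in coronary cells (ENSMUSG00000026235, chromosome 1, 77367185 to 77515088 on the minus strand). It was at 21.2 and 20.8 CPM in E17 coronary libraries, against 37.4 and 29.0 CPM in E17 endocardial libraries. E13 coronary libraries had 15.6, 17.496, 16.9 and 14.5 CPM, against 20.2, 21.8, 21.3 and 21.1 CPM in E13 endocardial libraries. The populations did not overlap at either stage. The coronary level was 0.633-fold the endocardial level at E17 (log2 -0.66 ± 0.12, edgeR adjusted p = 0.000537) and 0.765-fold at E13 (log2 -0.39 ± 0.09, edgeR adjusted p = 0.00178).

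**Figure D2:**
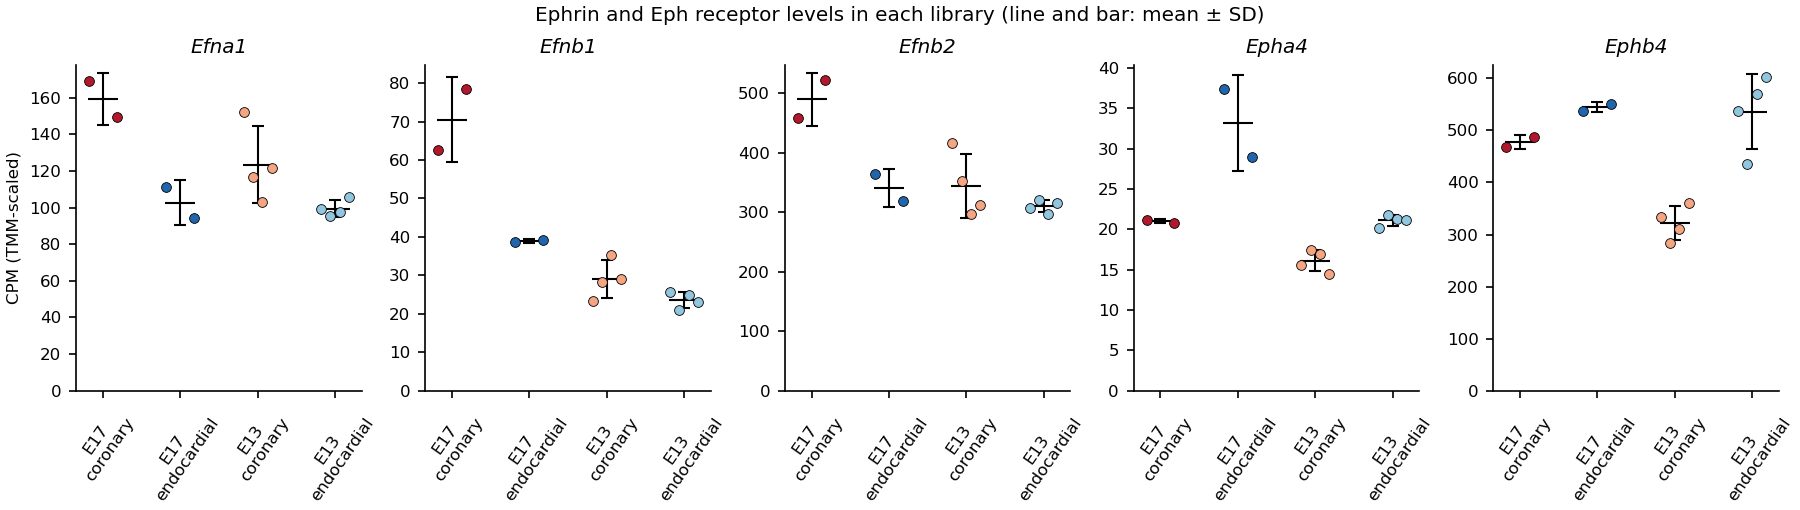
Levels of the 5 genes in each of the 12 libraries, in TMM-scaled CPM on vertical axes from 0, with lines at group means and bars of 1 SD. Ephb4 is lower in all E13 coronary than in all E13 endocardial libraries, and Efnb1 is higher in all E17 than in all E13 libraries of its cell population.

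Counted together, at E17 3 of the 5 genes were higher and 1 was lower in coronary than in endocardial cells, and at E13 2 were higher and 2 were lower. Among these 5, the ligands made up every higher call and the receptors every lower one. This split did not hold over the whole family, where the receptor Ephb1 was higher and the ligand Efna4 lower in coronary cells at both stages. The counts of the 5 genes stand against a background in which 52.6% of tested genes passed at E17 (26.5% higher, 26.1% lower) and 60.0% at E13 (30.1% higher, 29.9% lower). Many genes thus pass between these populations. The median log2 difference of the 5 was 0.52 at E17 and 0.15 at E13, against -0.01 and -0.02 over all genes tested. The batch label paired 1 coronary with 1 endocardial library. Within batches Efna1 was higher in the coronary library in 2 of 2 batches at E17 and 4 of 4 at E13, Efnb1 and Efnb2 each in 2 of 2 and 3 of 4, and Epha4 and Ephb4 in 0 of 2 and 0 of 4. Set against the summed endothelial markers instead of the library total, the E13 difference of Epha4 was 0.12 in place of -0.39 on the log2 scale, that of Ephb4 was -0.22, and those of Efna1, Efnb1 and Efnb2 were 0.81, 0.80 and 0.66. At E17 the same scaling gave log2 differences of 0.26 for Efna1, 0.47 for Efnb1, 0.14 for Efnb2, -1.02 for Epha4 and -0.57 for Ephb4. The markers summed were Pecam1, Cdh5, Tek, Kdr, Emcn, Tie1 and Erg. Pecam1 (CD31) and Emcn were used in sorting, and Emcn was higher in endocardial than in coronary libraries at both stages. The sum is therefore not a neutral measure of endothelial content. Markers of other cell types moved too. At E17 5 fibroblast markers were higher and 2 lower in coronary cells, 9 of 10 mural markers were higher and none lower, and 4 of 8 epicardial markers were higher and none lower. At E13 all 9 fibroblast markers were higher, 6 mural markers were higher and none lower, and 6 epicardial markers were higher and 1 lower. Their part in these results was not tested.

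The balance of ligand and receptor within a library does not depend on how libraries are scaled. Efnb2 per kilobase divided by Ephb4 per kilobase was 0.661 and 0.725 in E17 coronary libraries, against 0.457 and 0.391 in E17 endocardial libraries. It was 0.846, 0.839, 0.647 and 0.586 in E13 coronary libraries, against 0.386, 0.498, 0.353 and 0.354 in E13 endocardial libraries. All 6 coronary libraries lay above all 6 endocardial libraries, and the stages overlapped in each population. Other gene lengths multiply every ratio alike, so they keep the order of libraries but not the size of the ratios. With longest-transcript lengths Efnb2 stood above Ephb4 in E13 coronary replicate 1 (87.0 against 76.9 CPM per kilobase). Whether ligand or receptor was the higher is therefore not fixed by these data. Which of the pair differed more depends on scaling. With TMM the log2 differences were 0.52 for Efnb2 and -0.19 for Ephb4 at E17, and 0.15 and -0.74 at E13. Relative to the summed endothelial markers they were 0.14 for Efnb2 and -0.57 for Ephb4 at E17, and 0.66 and -0.22 at E13. No test was made of the ratio, and how many other gene pairs separate the libraries in this way was not counted. Between the populations 52.6% of tested genes passed at E17 and 60.0% at E13.

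**Figure D3:**
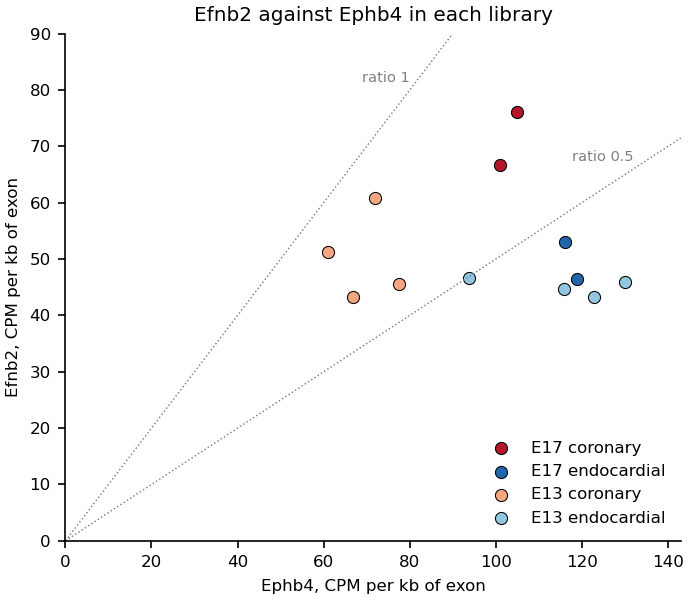
Efnb2 (vertical) against Ephb4 (horizontal) in CPM per kilobase of exon, 1 point per library, coloured by group, with dotted lines at ratios of 1 and 0.5. Coronary libraries lie between the lines, with ratios of 0.586 to 0.846, and endocardial libraries below the lower line, with ratios of 0.353 to 0.498. All exons gave the lengths, and the place of a library relative to the lines depends on the lengths used.

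Between E13 and E17 all 5 genes were higher at E17 in coronary cells, where 50.1% of tested genes passed, 24.6% higher and 25.6% lower. The median log2 difference of the 5 was 0.51, against -0.02 over all genes tested. Efnb1 had the largest difference of the 5, at 2.44-fold (log2 1.29 ± 0.13, n = 2 and 4, edgeR adjusted p = 8.18e-06). Ephb4 was 1.48-fold higher at E17 (log2 0.57 ± 0.11, edgeR adjusted p = 0.00126) and Efnb2 1.42-fold higher (log2 0.51 ± 0.11, edgeR adjusted p = 0.00269). Epha4 differed by 0.38 ± 0.10 (edgeR adjusted p = 0.00912) and Efna1 by 0.37 ± 0.12 (edgeR adjusted p = 0.0261) on the log2 scale. The Efna1 call was lost without E17 coronary replicate 1 (adjusted p = 0.184), without E13 coronary replicate 2 (adjusted p = 0.0547) and in a fit over the 2 coronary groups alone (adjusted p = 0.0617), and the Epha4 call without E17 coronary replicate 1 (adjusted p = 0.0578).

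Coronary libraries also differed between stages in their endothelial markers, of which 6 of 7 were higher at E17 and 1 was lower. Relative to the summed endothelial markers, 4 of the 5 differences turned round: Efna1 was at -0.46, Efnb2 at -0.32, Epha4 at -0.45 and Ephb4 at -0.26 on the log2 scale, while Efnb1 stayed higher at E17 at 0.46. On that scale Efnb2 was at 47.7 to 48.5 CPM per 1000 CPM of endothelial markers in E17 coronary libraries, against 54.8 to 64.1 in E13 coronary libraries. For Efnb1 the values were 6.54 to 7.29 in E17 coronary libraries, against 3.43 to 7.13 in E13 coronary libraries. The direction of the coronary stage difference of Efna1, Efnb2, Epha4 and Ephb4 therefore rests on the scale used. Fibroblast markers ran opposite, with 1 of 9 higher and 5 lower at E17, and the part of either list in the result was not tested.

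In endocardial cells 2 of the 5 genes were higher at E17 and none was lower, where 31.8% of tested genes passed (16.2% higher, 15.6% lower). The median log2 difference of the 5 was 0.14, against 0.00 over all genes tested. Efnb1 was 1.64-fold higher (log2 0.72 ± 0.14, edgeR adjusted p = 0.00207) and Epha4 1.57-fold higher (log2 0.65 ± 0.10, edgeR adjusted p = 0.000398). Differences of Efna1 (0.05 ± 0.13, edgeR adjusted p = 0.815), Efnb2 (0.14 ± 0.12, edgeR adjusted p = 0.403) and Ephb4 (0.02 ± 0.12, edgeR adjusted p = 0.909) did not pass. The Efnb1 and Epha4 calls held with each library left out in turn. Endothelial marker sums of the 2 endocardial groups overlapped.

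Whether the coronary minus endocardial difference itself changed between stages was tested as an interaction, which 32.7% of tested genes passed (16.2% higher, 16.5% lower). It passed for Efnb1 (0.57 ± 0.20 on the log2 scale, edgeR adjusted p = 0.0445) and Ephb4 (0.55 ± 0.16, edgeR adjusted p = 0.0232). Relative to the summed endothelial markers both turned round, to -0.32 for Efnb1 and -0.35 for Ephb4. The edgeR interaction did not pass for Efna1 (0.32 ± 0.18, adjusted p = 0.197), Efnb2 (0.37 ± 0.16, adjusted p = 0.108) or Epha4 (-0.27 ± 0.15, adjusted p = 0.180). The Ephb4 call was lost without E17 endocardial replicate 1 or 2 (adjusted p of 0.0801 and 0.0596) or E17 coronary replicate 2 (0.0788). The Efnb1 call was lost without E13 endocardial replicates 1, 3 or 4 (adjusted p of 0.0807, 0.0757 and 0.0625) or E13 coronary replicates 2 or 4 (0.0833 and 0.0777). It was also lost without E17 endocardial replicates 1 or 2 (0.125 and 0.101) or E17 coronary replicate 2 (0.216). Without E13 coronary replicate 1 the interaction passed for Efna1 (0.42, adjusted p = 0.0172) and Efnb2 (0.46, adjusted p = 0.00912), and without E17 endocardial replicate 2 for Epha4 (-0.44, adjusted p = 0.0327).

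**Figure D4:**
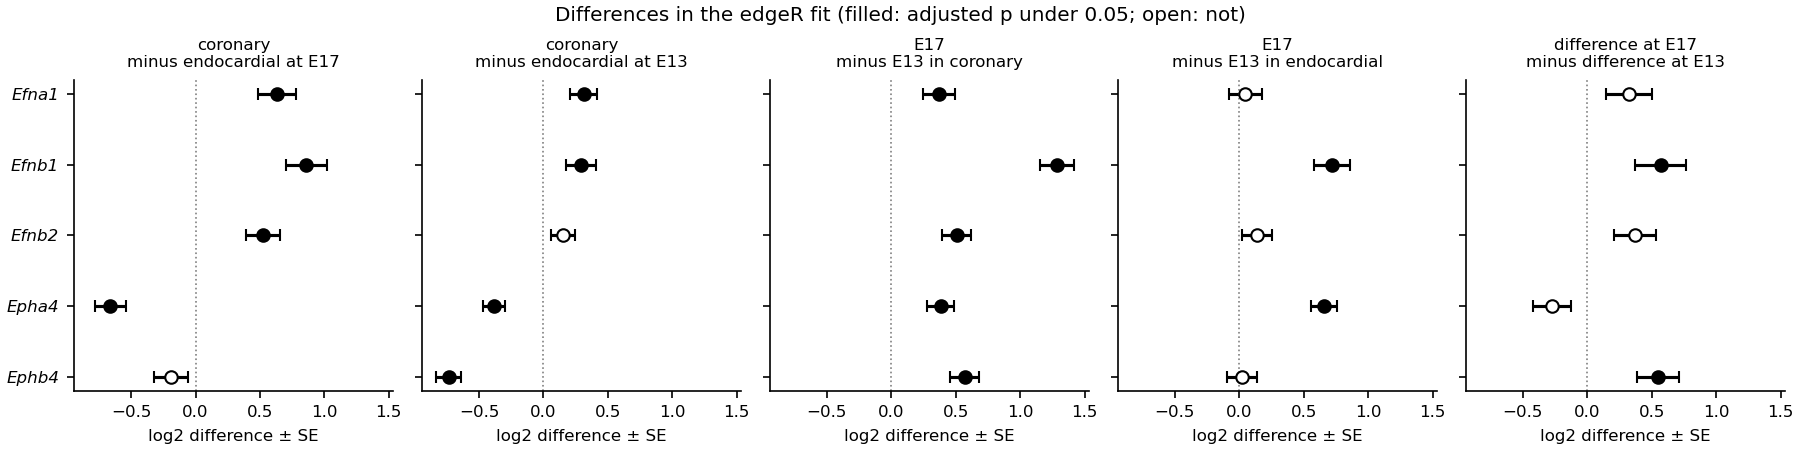
Log2 differences of the 5 genes in each comparison, with bars of 1 standard error and filled points where the edgeR adjusted p was under 0.05. The ligands lie above 0 and the receptors below 0 between coronary and endocardial cells at both stages, and all 5 lie above 0 between E17 and E13 coronary cells.

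Of the 22 ephrin and Eph receptor genes in mouse 19 were tested, all but Epha6, Epha8 and Epha10. In coronary against endocardial cells, 6 were higher and 7 lower at E17, and 8 were higher and 7 lower at E13. In coronary cells, 7 were higher and 11 lower at E17 than at E13, and in endocardial cells 2 were higher and 5 lower, with 3 called without E17 endocardial replicate 2. The interaction passed for 9 (2 higher, 7 lower), and for 5 without E17 coronary replicate 2. Over all tested genes the shares called were 52.6% between populations at E17, 60.0% at E13, 50.1% between coronary stages, 31.8% between endocardial stages and 32.7% for the interaction. Median log2 differences of the 19 were -0.56 at E17 and 0.29 at E13 between the populations, and -1.58 in coronary and 0.09 in endocardial cells between the stages. Genes other than the 5 that reached a mean of 5 CPM in a group were 11 in number.

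Ephb1, an EphB receptor, separated the populations most sharply. It was at 53.2 and 38.3 CPM in E17 coronary libraries, against 0.546 and 0.583 CPM in E17 endocardial libraries. E13 coronary libraries had 24.7, 16.7, 15.3 and 18.1 CPM, against 0.676, 0.576, 0.150 and 0.238 CPM in E13 endocardial libraries, which held between 3 and 18 counts each. The differences were 6.33 ± 0.41 at E17 (edgeR adjusted p = 1.19e-07) and 5.41 ± 0.29 at E13 (edgeR adjusted p = 2.44e-08) on the log2 scale. The size of both folds rests on those few endocardial counts.

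Epha7, an EphA receptor, was lower in coronary cells at both stages. E17 coronary libraries had 11.2 and 4.79 CPM, against 230.3 and 243 CPM in E17 endocardial libraries. E13 coronary libraries had 62.5, 109, 121 and 86.6 CPM, against 162, 172, 179.8 and 177 CPM in E13 endocardial libraries. The coronary level stood at log2 -4.91 ± 0.34 to the endocardial level at E17 (edgeR adjusted p = 2.06e-07) and at log2 -0.87 ± 0.19 at E13 (edgeR adjusted p = 0.00182), and the interaction was -4.04 ± 0.38 (edgeR adjusted p = 9.92e-06). Epha2, the receptor best known for binding ephrin-A1, was at 90.6 and 101 CPM in E17 coronary libraries, against 140.1 and 143 CPM in E17 endocardial libraries (log2 -0.56 ± 0.08, edgeR adjusted p = 5.14e-05). At E13 it was at 79.2 to 87.9 CPM in coronary and 122 to 137 CPM in endocardial libraries (log2 -0.61 ± 0.05, edgeR adjusted p = 1.03e-06).

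Several family genes of low level differed in coronary cells. Epha3 averaged 1.58 CPM in E17 coronary, 0.218 CPM in E17 endocardial, 11.3 CPM in E13 coronary and 0.326 CPM in E13 endocardial libraries. Epha1 and Ephb6 were higher in coronary than endocardial cells at E13 (log2 3.04 ± 0.37, edgeR adjusted p = 1.95e-05, and 1.95 ± 0.20, edgeR adjusted p = 4e-06). Ephb6 then was lower at E17 than at E13 in coronary cells (log2 -2.64 ± 0.28, edgeR adjusted p = 9.75e-06), as were the A-type ligands Efna4 (log2 -1.92 ± 0.15, edgeR adjusted p = 7.53e-07) and Efna5 (log2 -2.85 ± 0.25, edgeR adjusted p = 2.04e-06). Starred calls of low genes that were lost without single libraries are not described further, among them those of Ephb2 at E17 (adjusted p up to 0.539), Ephb3 at E17 (up to 0.223) and E13 (up to 0.124), Epha3 at E17 (up to 0.153) and Epha1 between coronary stages (up to 0.103). Across E13 coronary libraries, 7 of the 11 genes were lowest in replicate 1 and highest in replicate 3. All 9 fibroblast markers had this order, as did 15% of 10832 genes with a mean of at least 5 CPM. The 7 genes were Efna2, Efna5, Epha1, Epha3, Epha7, Ephb2 and Ephb3, while Epha2 and Ephb1 had the reverse order. Among the 5 genes Efnb1 had the order of the fibroblast markers, while Efna1 and Efnb2 had its reverse. That reverse order was also held by 6 of 7 endothelial markers and 23.2% of the 10832 genes. Between the E17 coronary libraries replicate 1 was the higher one for 10 of the 11 genes, all 9 fibroblast and all 10 mural markers, none of 7 endothelial markers and 2 of the 5 genes, against 5072 of the 10832.

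**Figure D5:**
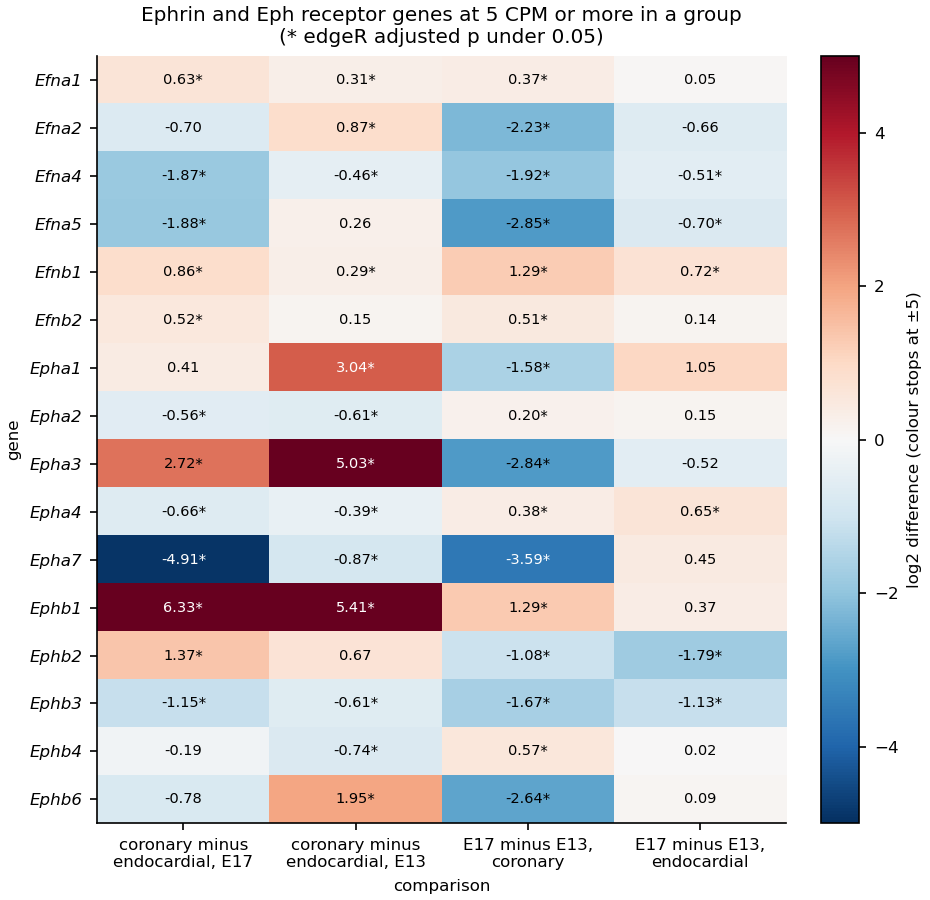
Log2 differences of the 16 ephrin and Eph receptor genes that reached a mean of 5 CPM in a group (rows) in 4 comparisons (columns), coloured from blue (lower) to red (higher), with a star where the edgeR adjusted p was under 0.05. Ephb1 and Epha3 have the darkest red cells, and Epha7 at E17 has the darkest blue one.

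Genes that carry the signal onward were read from fixed lists. Those described singly were picked for the smallest adjusted p of their list in a comparison, so they need not be typical of it. Of 23 tested genes of forward signalling (24 listed, Ngef untested), among them guanine nucleotide exchange factors and the adaptor Nck1, 14 were higher and 4 lower in coronary than endocardial cells at E17, and 9 were higher and 7 lower at E13. Of all tested genes 26.5% were higher and 26.1% lower at E17, and 30.1% and 29.9% at E13. Median log2 differences of the 23 were 0.33 at E17 and 0.04 at E13. Arhgef15 (ephexin 5), a guanine nucleotide exchange factor, averaged 440.0 ± 31.4 CPM in E17 coronary, 156 ± 4.80 CPM in E17 endocardial, 194 ± 28.6 CPM in E13 coronary and 206 ± 6.26 CPM in E13 endocardial libraries (SD). It was 2.82-fold higher in coronary cells at E17 (edgeR adjusted p = 8.46e-07), and the interaction was 1.58 ± 0.15 (edgeR adjusted p = 9.87e-06). Tiam1, a Rac exchange factor, averaged 21.6 ± 0.348 CPM in E17 coronary, 65.2 ± 13.2 CPM in E17 endocardial, 57.9 ± 4.28 CPM in E13 coronary and 51.9 ± 3.62 CPM in E13 endocardial libraries, with an interaction of -1.75 ± 0.16 (edgeR adjusted p = 6.93e-06). Between stages 12 of the 23 were higher and 7 lower at E17 in coronary cells, and 3 higher and 6 lower in endocardial cells, where the 9 calls became 5 without E17 endocardial replicate 1 and 3 without replicate 2. The interaction passed for 12 higher and 6 lower. Over all tested genes 50.1% were called between coronary stages, 31.8% between endocardial stages and 32.7% for the interaction.

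Of 11 tested genes of reverse signalling (12 listed, Grip2 untested), 3 were higher and 6 lower in coronary than endocardial cells at E17, and 1 was higher and 5 lower at E13, with median log2 differences of -0.56 and -0.09, where 52.6% and 60.0% of all tested genes were called. Between stages 3 were higher and 4 lower at E17 in coronary cells, and 2 higher and 2 lower in endocardial cells, and the interaction passed for 2 higher and 4 lower. The shares over all tested genes were 50.1% between coronary stages, 31.8% between endocardial stages and 32.7% for the interaction. Grip1, a PDZ scaffold that binds B-type ephrins, averaged 1.68 CPM in E17 coronary, 22.5 CPM in E17 endocardial, 14.2 CPM in E13 coronary and 54.8 CPM in E13 endocardial libraries (log2 -3.75 ± 0.29 at E17, edgeR adjusted p = 4.41e-07, and -1.95 ± 0.15 at E13, edgeR adjusted p = 3.16e-07). Rgs3, a regulator of G protein signalling that binds ephrin-B, was at 245 to 279 CPM in E17 coronary, 796 to 798 CPM in E17 endocardial, 264 to 302 CPM in E13 coronary and 621 to 677 CPM in E13 endocardial libraries. Its differences were -1.60 ± 0.08 at E17 (edgeR adjusted p = 1.16e-08) and -1.21 ± 0.06 at E13 (edgeR adjusted p = 6.21e-09). Dab2, an endocytic adaptor, was lower as well (log2 -1.82 ± 0.09 at E17, edgeR adjusted p = 1.65e-08, and -1.27 ± 0.06 at E13, edgeR adjusted p = 1.28e-08). Of 7 shedding and cleavage genes, 2 were higher and 3 lower at E17, and 1 was higher and 3 lower at E13, with median log2 differences of -0.02 and -0.01. Between stages 2 of the 7 were higher in coronary cells (1 called without E17 coronary replicate 2), and 2 were higher and 1 lower in endocardial cells (1 called without E17 endocardial replicate 1). Their interaction passed for 2 higher and 1 lower, and for 1 gene without E17 endocardial replicate 1.

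Arterial and venous genes give the setting of Efnb2 and Ephb4. Of 14 arterial genes, 10 were higher and 2 lower in coronary than endocardial cells at E17, and 10 were higher and 4 lower at E13. Of 8 venous genes, 3 were higher and 4 lower at E17, and 5 were higher and 2 lower at E13. Over all tested genes 26.5% were higher and 26.1% lower at E17, and 30.1% and 29.9% at E13. Median log2 differences were 1.59 at E17 and 1.04 at E13 for the arterial list and -0.80 and 0.91 for the venous list. Which of the arterial and capillary or venous gates gave the E17 coronary libraries is not known. The part of that gate in the E17 values was not tested. At E13, where most of the venous list was higher in coronary cells, Ephb4 was lower there (log2 -0.74). Most of the arterial list was higher there too, while Efnb2 did not pass (log2 0.15, edgeR adjusted p = 0.181). Relative to the summed endothelial markers the E13 differences were -0.22 for Ephb4 and 0.66 for Efnb2.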

How the data were processed

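The 12 libraries were made from polyA RNA with NEBNext Ultra and read as single reads on a HiSeq 2500, per the labels' protocols, so strand is not marked. The authors deposited expected counts for each gene, and the submitters' processing notes name CASAVA 1.8.2, cutadapt 1.3, RSEM 1.2.3 and GRCm38. Of these values 18.31% were not whole within 1e-06, and all were rounded to whole numbers first. Of 41214 gene IDs, 40254 matched a symbol and 40340 a place in the GRCm38 annotation (GENCODE M21). Genes that passed edgeR's filterByExpr (minimum count 10, total 15) were fitted together over the 4 groups by edgeR 4.0.16 (quasi-likelihood test, TMM, 8 residual degrees of freedom), and p-values were adjusted over all genes by Benjamini-Hochberg with a threshold of 0.05. The scripts were tested on simulated data. Alternatives were DESeq2 1.42.0, its size factors, no filter, the batch label as a block, the 2 groups compared alone, each library left out, longest-transcript lengths, and, chosen after seeing the data, scaling to the summed endothelial markers.

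The genes and lists were chosen with earlier results of these data known. Genes named beside the 5 were every other family gene with a mean of at least 5 CPM in a group, and up to 3 genes per effector list and comparison with the smallest adjusted p among those past 0.05 and 1.5-fold. For each of the 5 genes, the 3 genes with the highest Pearson r of log2(CPM + 0.5) over the 12 libraries were named among 9481 genes with a mean of at least 10 CPM, except 1 that is not reported here. The batch label, 1 to 4 at E13 and 5 to 6 at E17, gives each batch 1 coronary and 1 endocardial library. Their deviations from group means correlated at 0.410, 0.694, 0.405 and 0.491 in the E13 batches, against -0.508 to 0.477 between batches. With 2 batches at E17 the 0.396 within and -0.396 between mirror each other by construction. At E13 the deviations also cancel within each group, so positive values within batches push those between batches down. The within-batch comparisons and the block alternative took the libraries as paired by their batch label. The main fit, which gave the p-values not marked otherwise, left this pairing out. In every replicate pair the chi-square of counts averaged at least 4.39 per gene, above sampling noise. Promoter windows were taken from RefSeq (GRCm38.p6), and all 5 genes matched.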

Additional observations from a re-analysis of the deposited data

Results flagged for a closer look

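Genes are given here when the coronary minus endocardial difference changed between E17 and E13. That change itself was tested (edgeR interaction, adjusted p under 0.05). Only the 5 genes and the family and effector genes named by the rule above were searched. Other genes of these lists that passed, such as Efna3, are counted above but not given here. On the log2 scale the change was 0.57 for Efnb1 (adjusted p = 0.0445) and 0.55 for Ephb4 (adjusted p = 0.0232), and both calls depend on single libraries as given above. Among other ephrins it was -1.57 for Efna2, -1.41 for Efna4 and -2.14 for Efna5. Among other receptors it was -2.63 for Epha1, -4.04 for Epha7 and -2.73 for Ephb6. In the forward signalling list it was -2.99 for Arhgef19, -1.06 for Vav2, 0.64 for Vav3, 1.58 for Arhgef15, -1.75 for Tiam1, -1.55 for Src and 0.95 for Nck1. In the lists of reverse signalling and cleavage it was 0.79 for Nck2, -0.40 for Rgs3, -0.55 for Dab2, -1.80 for Grip1, -0.67 for Pard3 and -0.52 for Psen2. The Efna2 call was lost without any 1 of 8 libraries, with adjusted p up to 0.197, the Vav2 call without E17 coronary replicate 2 (adjusted p = 0.0517) and the Psen2 call without E17 endocardial replicate 1 (adjusted p = 0.0537).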

How the results depend on the processing

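With 1 library left out, 25 calls of the 5 genes were lost and 4 gained, no called value changed sign, and the libraries are named above. Log2 values then ran from 0.22 to 0.41 (Efna1), 0.21 to 0.41 (Efnb1) and 0.075 to 0.24 (Efnb2) at E13, and from 0.43 to 0.63 (Efnb2) at E17. In coronary cells between stages they ran from 0.28 to 0.47 (Efna1) and 0.33 to 0.41 (Epha4). For the interaction they ran from 0.21 to 0.45 (Efna1), 0.40 to 0.72 (Efnb1), 0.28 to 0.47 (Efnb2), -0.44 to -0.074 (Epha4) and 0.48 to 0.63 (Ephb4). Family calls ran from 3 to 7 between endocardial stages and 5 to 11 for the interaction. Genes called between endocardial stages ran from 2928 to 5211, with 2928 without E17 endocardial replicate 1 and 3178 without replicate 2, against 4830 with all libraries. The batch label as a replicate block made Ephb4 at E17 a call (-0.19, edgeR adjusted p = 0.0415) and changed no other call of the 5 genes, and a fit over the 2 coronary groups alone lost Efna1 (0.37). DESeq2, its size factors and no filter on low counts changed no call of the 5.

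Set against the summed endothelial markers, an alternative chosen after seeing the data and given with no test, stage differences in coronary cells were -0.46 (Efna1), 0.46 (Efnb1), -0.32 (Efnb2), -0.45 (Epha4) and -0.26 (Ephb4). E13 differences were 0.81, 0.80, 0.66, 0.12 and -0.22 in the same order of genes, E17 differences 0.26, 0.47, 0.14, -1.02 and -0.57, and interactions -0.56, -0.32, -0.51, -1.15 and -0.35. The interactions of Efnb1 and Ephb4 thus turned round on that scale, and the cause was not tested. The marker sum includes Pecam1 and Emcn, which were used in sorting. With the longest transcript as length, Efnb2 over Efna1 was 1.05 in E17 coronary libraries (0.827 with all exons), 1.13 in E17 endocardial (0.887), 0.953 in E13 coronary (0.747) and 1.06 in E13 endocardial libraries (0.832). With 2 libraries in each E17 group, the spread within them is taken from all 4 groups.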

Other observations

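Genes whose levels followed each of the 5 most closely over the 12 libraries are given as a description, since the libraries fall into 4 groups. Efna1 was followed by Arl4c (r = 0.959), Malt1 (r = 0.941) and Gm7536 (r = 0.941). Efnb1 was followed by Rusc2 (r = 0.967), Inpp4a (r = 0.964) and Akap2 (r = 0.961), and Efnb2 by Itsn2 (r = 0.959), Ssbp4 (r = 0.958) and Ntan1 (r = 0.957). Epha4 was followed by Ppp1r37 (r = 0.967), Fbxo30 (r = 0.965) and Btg1 (r = 0.963), and Ephb4 by AU040320 (r = 0.984) and Tmub2 (r = 0.974). Among the 5 themselves, Efna1 and Efnb2 had r = 0.878 and Epha4 and Ephb4 r = 0.671, while Efnb2 and Ephb4 had r = -0.05.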
